A study of Homo sapiens with 2 samples.

Results

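The anaphase promoting complex (APC/C) is the ubiquitin ligase that marks securin and the mitotic cyclins for destruction, so that sister chromatids separate and cells leave mitosis. A scaffold and a set of core subunits carry the catalytic RING and cullin subunits, and a ubiquitin-conjugating enzyme (E2) supplies the ubiquitin. The complex acts only with an activator, CDC20 up to anaphase or FZR1 (CDH1) afterwards, and taxanes engage the spindle checkpoint, which holds CDC20 back. The set examined here was the activators CDC20 and FZR1, the E2 UBE2C, the inhibitor FBXO5 (EMI1) and the core subunits ANAPC1, ANAPC10, ANAPC11, CDC16, CDC23 and CDC27. The genes were taken by symbol, from probe sets that the platform annotation pairs with exactly 1 gene. Of these 10 genes, 9 were measured, out of 19775 genes on the arrays. The 3 probe sets of ANAPC1, the largest scaffold subunit, also carry symbols of its pseudogenes and were not used.

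PC3CR is a subline of PC3 that had been passaged with cabazitaxel (CBZ), a microtubule-stabilising taxane, for 18 months and was then kept without the drug for 3 months. PC3, the parental line, came from a castration-resistant prostate cancer and was not kept in CBZ. Both lines were grown in RPMI-1640 with fetal bovine serum, and total RNA of each was hybridised to 1 array. The values are log2 values made by the authors with the robust multichip average (RMA), so that a difference of 1 in PC3CR minus PC3 is 2-fold, the threshold of the methods. PC3CR is a single resistant subline. A single array per line gives no estimate of the spread between cultures, so no p-value was computed and no difference was checked in replicates. Levels of different genes are not compared, because each probe set has its own brightness. Of 5 epithelial genes, all on the brighter array at or above the median of genes, 2 were higher and 3 lower in PC3CR (median -0.67). The keratins KRT8 and KRT18 were at 9.79 and 12.36 in PC3CR, against 9.72 and 11.69 in PC3, whereas KRT19 was at 8.03 in PC3CR, against 11.32 in PC3. The adhesion genes EPCAM and CDH1 were at 8.57 and 8.08 in PC3CR, against 11.07 and 8.75 in PC3. The 3 leukocyte genes measured, PTPRC, CD3E and LYZ, lay between 2.95 and 5.46 in PC3CR and between 3.03 and 5.74 in PC3, all below the median of genes (6.05 in PC3CR and 5.93 in PC3). PTPRC was also under the first quartile of each array's genes (4.10 in PC3CR and 4.22 in PC3), and CD3E was above it.

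Cell cycle genes of late G2 and mitosis often carry a CHR element (core TTTGAA) near their start together with CCAAT boxes, which bind NF-Y, whereas genes of G1 and S phase often carry E2F sites. The RefSeq promoters (GRCh38.p14, 250 bases before to 50 after the start) were searched on both strands for these. As E2F core the search took TTCCCGC first, then the variant spelled TTGGCGC, and also the variant spelled TTCGCGC. Promoters were listed for 9 of the 10 genes, all but UBE2C. A match is a description of the letters in this window and not a mapped binding site. The following 4 promoters are shown because CDC20 and FBXO5 had the largest positive differences of the set, FZR1 is the other activator and CDC27 had the largest negative difference. Matches are in capitals, and each sequence runs 5′ to 3′ along the strand of its gene.
CDC20, chr1:43358731-43359030, + strand: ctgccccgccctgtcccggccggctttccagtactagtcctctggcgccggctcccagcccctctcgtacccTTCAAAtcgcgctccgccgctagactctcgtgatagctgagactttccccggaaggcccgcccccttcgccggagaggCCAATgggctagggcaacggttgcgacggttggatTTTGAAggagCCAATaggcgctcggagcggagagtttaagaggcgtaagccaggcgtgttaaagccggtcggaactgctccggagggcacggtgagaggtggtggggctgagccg
FBXO5 second listed start, chr6:152982992-152983291, - strand: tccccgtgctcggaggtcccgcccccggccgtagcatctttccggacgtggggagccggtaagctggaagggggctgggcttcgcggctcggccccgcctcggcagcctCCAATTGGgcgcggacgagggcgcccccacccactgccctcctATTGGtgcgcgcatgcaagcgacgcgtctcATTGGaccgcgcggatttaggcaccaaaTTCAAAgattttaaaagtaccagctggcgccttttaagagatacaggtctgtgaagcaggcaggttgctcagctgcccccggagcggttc
FZR1 first listed start, chr19:3506061-3506360, + strand: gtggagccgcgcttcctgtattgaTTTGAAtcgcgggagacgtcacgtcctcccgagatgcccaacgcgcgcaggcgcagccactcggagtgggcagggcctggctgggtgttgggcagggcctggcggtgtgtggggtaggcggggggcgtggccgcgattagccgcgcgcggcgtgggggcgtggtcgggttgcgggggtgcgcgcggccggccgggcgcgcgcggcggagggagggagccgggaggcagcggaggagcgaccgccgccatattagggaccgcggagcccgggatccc
CDC27, chr17:47189246-47189545, - strand: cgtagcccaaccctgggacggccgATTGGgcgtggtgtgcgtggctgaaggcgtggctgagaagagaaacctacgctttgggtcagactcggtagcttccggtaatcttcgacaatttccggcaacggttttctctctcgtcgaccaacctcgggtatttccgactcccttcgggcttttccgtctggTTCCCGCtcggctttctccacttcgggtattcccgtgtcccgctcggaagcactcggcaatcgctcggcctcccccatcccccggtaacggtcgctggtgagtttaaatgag

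The CDC20 promoter held the CHR core 65 bases upstream of the start and again, in reverse, 178 bases upstream, with CCAAT boxes at 100 and 55 bases. The second listed start of FBXO5 had a reversed CHR core 40 bases upstream and 4 CCAAT matches between 141 and 68 bases upstream, 2 of which share bases. Its first listed start held none of these motifs. The first start of FZR1 had 1 CHR core at 226 bases and no CCAAT, and its second start had 1 E2F core at 12 bases. CDC27 had 1 reversed CCAAT at 226 bases and 1 E2F core at 62 bases, with no CHR core.

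Among the core subunits of the set, 2 of 6 genes had a CHR core in any listed promoter (ANAPC1 and ANAPC10), 4 had CCAAT and 4 had an E2F core. Counted over their 12 listed promoters, 2 held a CHR core (16.7%), 6 CCAAT (50.0%) and 5 an E2F core (41.7%). Of all 35116 listed promoters, 15.2% held the CHR core, 34.6% CCAAT, 11.0% an E2F core and 5.9% both CHR and CCAAT. CDC20 and FBXO5 were the genes of the set with CHR and CCAAT in 1 promoter. The plot of motif positions shows every listed start of the 9 genes.

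**Figure D1:**
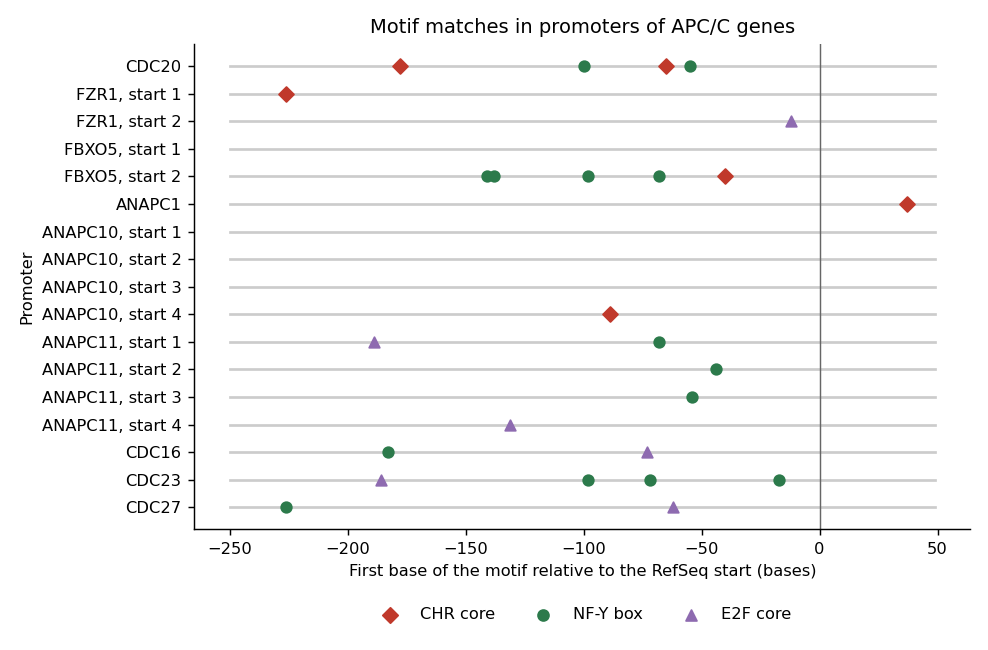
Motif matches in the RefSeq promoters of 9 APC/C genes, with the first base of each match on the horizontal axis (bases from the start) and 1 line per listed start. Red diamonds are CHR cores, green circles NF-Y boxes (CCAAT) and purple triangles E2F cores; CDC20 and the second start of FBXO5 hold diamonds and circles together.

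Within the set, the activator CDC20 and the inhibitor FBXO5 were at least 2-fold higher in PC3CR, UBE2C was higher by less, FZR1 differed little, and 4 of the 5 measured core subunits were lower in PC3CR by less than 2-fold. Thus 2 of 9 genes passed 2-fold upward and 0 downward, whereas 9.84% of all genes passed it upward and 6.72% downward. The 9 differences had a median of 0.17, and the median over all genes was -0.04. On its brighter array each of the 9 probe sets lay at or above the median of genes. Of the 10663 genes at that level, 1657 passed 2-fold upward and 1148 downward, a larger share than over all genes. Their median difference was 0.09.

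CDC20 recruits substrates to the APC/C in metaphase and is the protein that the spindle checkpoint sequesters. Its single probe set was at 10.13 in PC3CR and at 8.29 in PC3, a difference of 1.84 or 3.57-fold. Only 2.44% of genes had a higher difference. FZR1 takes over from CDC20 in late mitosis and keeps the APC/C active in G1. It was at 7.17 in PC3CR and at 6.86 in PC3, a difference of 0.31 or 1.24-fold. The 4 probe sets of FZR1 split, 3 with a positive and 1 with a negative difference, between -0.20 and 0.50. The difference of CDC20 thus exceeded that of FZR1 by 1.53 on the log2 scale.

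UBE2C (UBCH10) starts ubiquitin chains on APC/C substrates. Its single probe set was at 10.68 in PC3CR and at 9.84 in PC3, a difference of 0.83 or 1.78-fold, below the 2-fold threshold. UBE2S, the E2 that extends these chains, was at 11.53 in PC3CR and at 11.21 in PC3, a difference of 0.32. Both E2 genes were therefore higher in PC3CR by less than 2-fold, and UBE2D1, another E2 of the complex, was not analysed here.

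FBXO5 keeps the APC/C inactive during S phase and G2 and is itself destroyed as mitosis begins. It was at 7.93 in PC3CR and at 6.24 in PC3, a difference of 1.69 or 3.22-fold. Its chosen probe set belongs to a class that can bind related sequences (suffix _x_at). The second probe set, of another class, was at 7.74 in PC3CR and at 6.31 in PC3, a difference of 1.43. Both probe sets of FBXO5 thus passed 2-fold upward, and the differences of FBXO5 and CDC20 lay 0.15 apart (FBXO5 minus CDC20, -0.15).

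**Figure D2:**
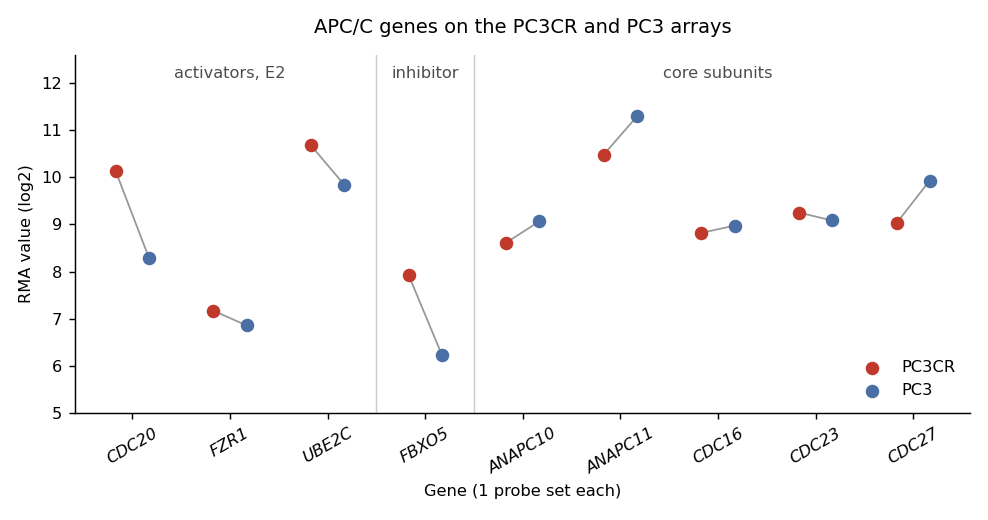
RMA values (log2, vertical axis) of the 9 measured APC/C genes on the PC3CR array (red) and the PC3 array (blue), 1 probe set per gene and 1 array per line, with a grey line joining the 2 values of a gene. CDC20 and FBXO5 have the steepest lines toward PC3CR, whereas ANAPC10, ANAPC11, CDC16 and CDC27 are higher in PC3.

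Of the 5 measured core subunits of the set, 4 were lower in PC3CR, whereas of all 13 measured subunits 6 were below 0 and 7 above. CDC27 (APC3), a repeat-containing subunit that docks the activator's tail, was at 9.03 in PC3CR and at 9.93 in PC3, a difference of -0.90, which is 1.87-fold lower in PC3CR. All 4 of its probe sets were lower, with differences between -1.44 and -0.40, and 2 of them passed 2-fold. The genome holds many CDC27 pseudogenes, and whether they add to this signal was not tested.

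ANAPC11, the RING subunit that binds the E2, was at 10.48 in PC3CR and at 11.29 in PC3, a difference of -0.81, which is 1.75-fold lower. Its second probe set differed by -0.33. ANAPC10 (DOC1), which helps to hold the destruction box of substrates, was at 8.61 in PC3CR and at 9.07 in PC3, a difference of -0.45. Its second probe set also lay lower, by a difference of -0.25, so that both genes were lower in PC3CR by every probe set.

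CDC16 (APC6) and CDC23 (APC8), which build the arch of the complex, differed least. CDC16 was at 8.82 in PC3CR and at 8.97 in PC3, a difference of -0.15, and its 3 probe sets were all lower, down to -0.44. CDC23 was at 9.25 in PC3CR and at 9.08 in PC3, a difference of 0.17. The second probe set of CDC23 disagreed in size, at 6.52 in PC3CR and 5.28 in PC3, a difference of 1.25.

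Counted by probe set, 11 of the 13 probe sets of the 5 measured core subunits were lower in PC3CR, and the 2 that were higher both belong to CDC23. Probe sets of 1 gene are not independent, and CDC27 has 4 of the 13 and CDC16 has 3. Of all genes, counted by 1 probe set each, 52.4% were below 0 and 45.2% above it. Over 4715 genes with at least 2 probe sets at or above the array median, the differences of the 2 brightest lay a median of 0.23 apart, and in 17.1% of these genes they had opposite signs. The differences of CDC16 and CDC23 were smaller than this gap, and those of the other 7 genes were larger, although that of FZR1 was below it after each of the 3 scalings. The gap reached 0.97 at its 90th percentile, and of the 9 genes CDC20 and FBXO5 exceeded that. This gap is between probes of 1 array pair and does not measure the spread between cultures.

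**Figure D3:**
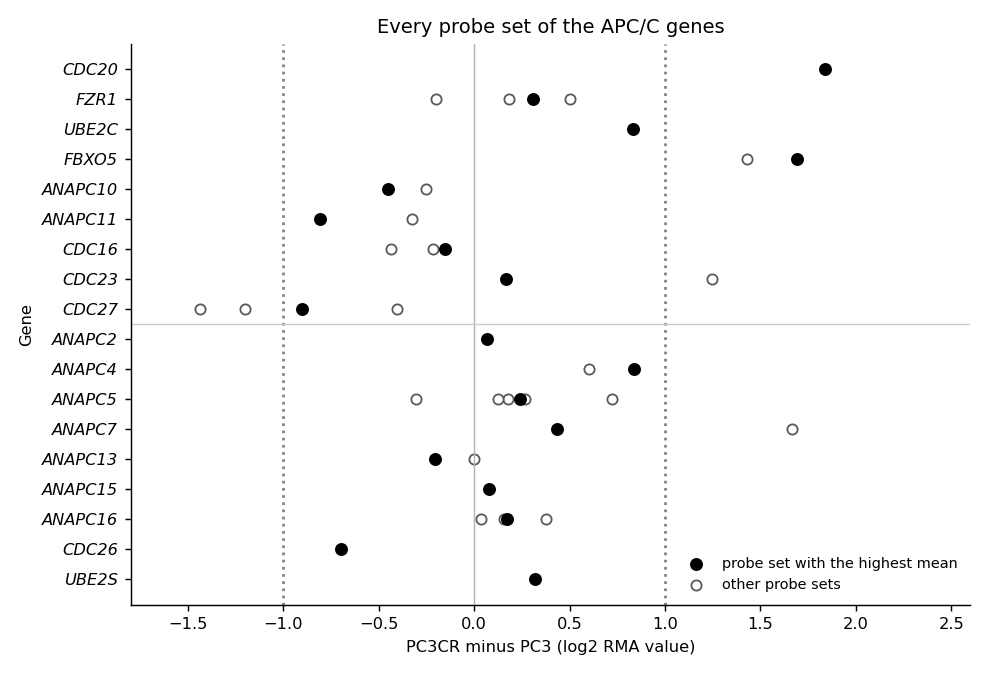
PC3CR minus PC3 (log2 RMA value, horizontal axis) for every probe set of 9 genes of the set (above the line) and of 8 further subunits and UBE2S (below it). Filled points are the probe set with the highest mean of both arrays, open points the others, and dotted lines mark 2-fold; the 4 points of CDC27 lie left of 0, and CDC23 and ANAPC7 each have 1 open point right of the upper dotted line.

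Set side by side, the activators and UBE2C had a median difference of 0.83 and the core subunits of the set one of -0.45. These medians are the values of UBE2C, which is not an activator, and of ANAPC10. By them the activators and E2 exceeded the core by 1.28 on the log2 scale. The differences of the activators and UBE2C ran between 0.31 and 1.84 and those of the core subunits between -0.90 and 0.17, without overlap. Of all genes 16.6% passed 2-fold in either direction, a share that does not measure how often groups overlap. With the mean of all probe sets of a gene the ranges overlapped, because CDC23 then stood at 0.71 and FZR1 at 0.20. They also overlapped with the probe set of the largest difference (CDC23 1.25, FZR1 0.50). Without _x_at and _s_at probe sets where another existed, FZR1 at -0.20 lay below CDC23 at 0.17. The choice of subunits also bore on this contrast. When all 13 measured subunits stood for the core, their median was 0.065 and the gap to the activators and E2 was 0.77. The ranges overlapped here too, because ANAPC4 and ANAPC7 had higher differences than FZR1.

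The 8 further subunits had a median closer to 0 than that of the core subunits of the set, although single genes such as ANAPC4 and CDC26 lay further out than ANAPC10, CDC16 and CDC23. None of the 8 passed 2-fold in either direction, beside 16.6% of all genes. Of these subunits, 6 were above 0 and 2 below it, and their median was 0.12. After median centring, loess centring or quantile normalization 4 were above 0 and 4 below. ANAPC4, a subunit of the platform, was at 8.41 in PC3CR and at 7.58 in PC3, a difference of 0.84, and its second probe set differed by 0.60. ANAPC7, an arch subunit of vertebrates, was at 8.87 in PC3CR and at 8.43 in PC3, a difference of 0.44, whereas its second probe set differed by 1.66. These platform and arch subunits had the highest differences among the 13.

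CDC26, a small subunit that stabilises CDC16, was at 9.26 in PC3CR and at 9.96 in PC3, a difference of -0.70 by its single probe set. ANAPC5, of the platform, differed by 0.24, and its 6 probe sets ran between -0.30 and 0.72. ANAPC2, the cullin-like partner of ANAPC11, was at 6.21 in PC3CR and at 6.15 in PC3. Its difference of 0.07 contrasts with the -0.81 of ANAPC11, although they form the catalytic module together. ANAPC13, ANAPC15 and ANAPC16, which are small accessory subunits, differed by -0.20, 0.08 and 0.17. The signs of ANAPC2 and ANAPC15 turned under all 3 scalings tried (-0.058 and -0.047 after median centring).

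Neighbouring genes on the chromosome moved with some subunits and not with others. Around each gene, up to 10 genes on either side that reached the array median in at least 1 line were taken in RefSeq order. CDC27, on chromosome 17, lay among 20 genes with a median difference of -0.73, of which 17 were below 0 and 8 were at least 2-fold lower. ANAPC4, on chromosome 4, lay among 20 genes with a median of 1.15, of which 19 were above 0 and 11 at least 2-fold higher. For these genes the difference had the sign of the surrounding genes, and whether gene dosage took part was not tested.

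The neighbours of CDC23, on chromosome 5, had a median of 0.70 and 7 of the 20 were at least 2-fold higher, while CDC23 itself differed by 0.17. Both E2 genes went against their surroundings. UBE2C, on chromosome 20, differed by 0.83 among genes with a median of -0.49, and UBE2S, on chromosome 19, by 0.32 among genes with a median of -0.74, 9 of them at least 2-fold lower. The neighbours of CDC20 and FBXO5 had medians of 0.01 and 0.10, so that both genes stood above genes that on balance differed little. ANAPC11 was at -0.81 among neighbours with a median of 0.11, of which 9 were below 0 and 11 above, so that these had no common direction.

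**Figure D4:**
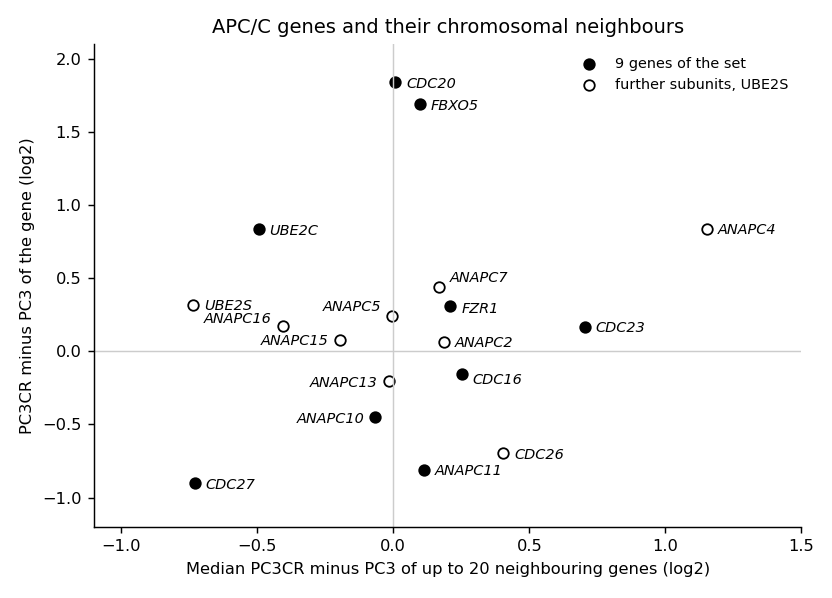
PC3CR minus PC3 (log2) of 9 genes of the set (filled) and of 8 further subunits and UBE2S (open) on the vertical axis, against the median difference of up to 20 neighbouring genes on the horizontal axis. CDC27 lies at the lower left and ANAPC4 at the right with neighbours of the same sign, and CDC20 and FBXO5 lie at the top above neighbours near 0.

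Genes that restrain or release CDC20 were also higher in PC3CR in part. Of 6 genes of the spindle checkpoint and related APC/C control, 3 passed 2-fold upward and 0 downward, with a median of 0.996, beside 9.84% upward and 6.72% downward over all genes. MAD2L1 (MAD2), which binds CDC20, was at 9.98 in PC3CR and at 8.84 in PC3, a difference of 1.14, and its 3 probe sets ran between 1.14 and 1.53. BUB1B (BUBR1), its partner in the mitotic checkpoint complex, was at 9.77 in PC3CR and at 8.64 in PC3, a difference of 1.13. Both were higher by less than CDC20 (MAD2L1 minus CDC20, -0.70, and BUB1B minus CDC20, -0.70).

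TRIP13, the ATPase that takes MAD2 out of its active form, had the largest difference of these 6 genes, at 9.50 in PC3CR and 7.98 in PC3, a difference of 1.53. MAD2L1BP (p31comet), which brings MAD2 to TRIP13, was at 8.69 in PC3CR and at 9.10 in PC3, a difference of -0.40. BUB3 differed by 0.23, with 6 probe sets between -0.16 and 0.98. FBXO43 (EMI2), the relative of FBXO5 known for meiotic arrest, was at 5.13 in PC3CR and 4.28 in PC3, a difference of 0.86. Its single probe set lay below the median of genes on both arrays. Among these genes only MAD2L1BP was lower in PC3CR.

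The proteins that the APC/C destroys are encoded by genes that were higher in PC3CR throughout the list. Of 22 genes of known APC/C substrates, 13 passed 2-fold upward and 0 downward, all 22 were above 0, and the median was 1.11. Over all genes 9.84% passed upward and 45.2% were above 0. CDCA3 had the largest difference, at 9.62 in PC3CR and 7.29 in PC3, a difference of 2.33. NEK2, a centrosomal kinase, followed at 2.28, AURKB and SKP2 at 1.97 each, ANLN, a cytokinesis protein, at 1.94 and CCNA2, which encodes cyclin A, at 1.92.

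The classical substrates of CDC20 were included. CCNB1, which encodes cyclin B1, was at 9.83 in PC3CR and at 8.29 in PC3, a difference of 1.54, and both of its probe sets passed 2-fold. PTTG1, which encodes securin, was at 11.82 in PC3CR and at 10.88 in PC3, a difference of 0.94. These are mRNA levels, and protein destruction was not measured.

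Markers of cycling cells moved with these groups. Of 20 further genes of G2 and M phase, 14 passed 2-fold upward and 0 downward (median 1.38, range 0.09 to 2.70). Of 15 genes of G1 and S phase, 10 passed upward and 0 downward (median 1.29, range 0.33 to 2.38). The shares over all genes were 9.84% upward and 6.72% downward. The part of these markers in the differences of CDC20, UBE2C, FBXO5 and the substrates was not tested. A larger share of cycling cells and more mRNA per cell cannot be told apart on these arrays.

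SCF, the other main ubiquitin ligase of the cell cycle, was set beside the APC/C. Its core and E2 genes SKP1, CUL1, RBX1, CDC34 and UBE2R2 had a median difference of 0.21, with none past 2-fold by the chosen probe sets. The 2 probe sets of CUL1 had opposite signs, at 0.60 for the chosen one and -1.32 for the other. The shares past 2-fold over all genes were 9.84% upward and 6.72% downward. The SCF receptor genes SKP2, FBXW7, BTRC, FBXW11 and CCNF had a median of 0.35, and SKP2, which is also an APC/C substrate, was the one past 2-fold. The receptors thus exceeded the core by 0.14 in SCF. This order turned with the mean of probe sets (receptors 0.015, core and E2 0.25), after loess centring (0.23 and 0.27) and after quantile normalization (0.21 and 0.27), so that no order is given for SCF. In the APC/C the activators and E2 exceeded the core subunits by 1.28, or by 0.77 with all measured subunits. By the lists used, the SCF E2 genes were counted with the SCF core and UBE2C with the APC/C activators. The difference between the ligases was not tested.

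**Figure D5:**
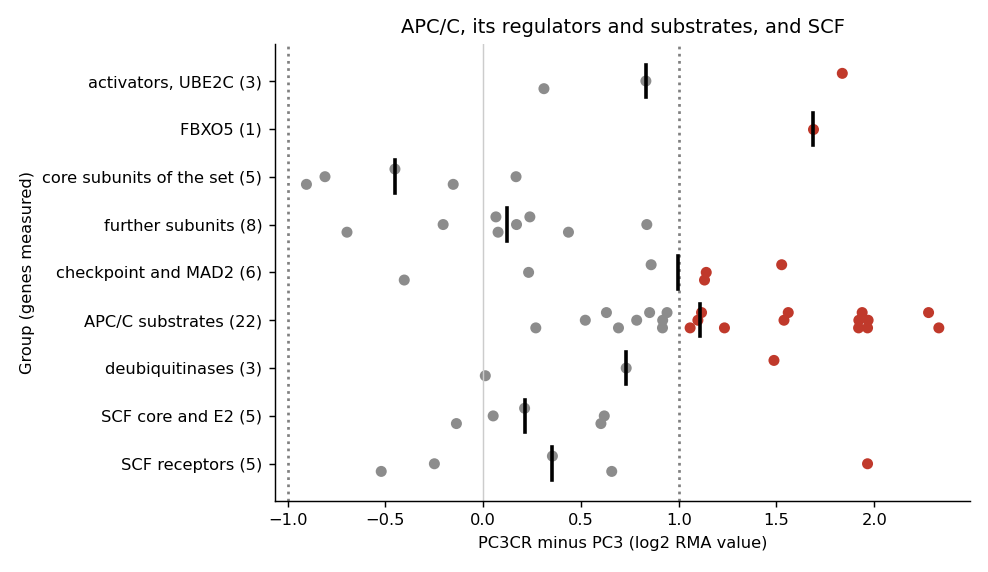
PC3CR minus PC3 (log2 RMA value, horizontal axis) for genes of the APC/C, its regulators and substrates and of SCF, each gene a point and the count of genes in brackets. Black bars are medians, red marks genes past 2-fold upward in PC3CR, grey genes lie within 2-fold and dotted lines mark that threshold; the substrates lie to the right of 0 and the core subunits of the set mostly to the left.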

How the data were processed

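Total RNA of PC3CR and PC3 was profiled on 1 Affymetrix array per line. The values deposited for 54613 probe sets are on the log2 scale and were made by the authors with RMA. For this the submitters' notes list Transcriptome Analysis Console 3.1 beside Affymetrix Expression Console 1.4. RMA gives the arrays like distributions, which can hide a difference in total mRNA. The probe set identifiers belong to the Human Genome U133 Plus 2.0 array, although the methods give a Human Gene 1.0 ST design. Scanner files were not used here.

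Probe sets with 1 gene symbol (41091) were named through the platform annotation, with symbols updated by Entrez ID to RefSeq on GRCh38.p14 for 41037 of them. For each of 19775 genes the probe set brightest on average over both arrays was used. PC3CR minus PC3 was taken, and 2-fold was counted without a floor. Groups came from the sample titles. All genes of the set, subunits and E2 genes were named, and in other lists up to 6 genes furthest from 0. MAD2L1, BUB1B, CCNB1 and PTTG1 are described for their roles. The epithelial and leukocyte genes were named to check the label. The genes and lists were chosen with earlier results of these data known. Alternatives were other probe set rules, scalings, floors and folds, the mean of a group, and all subunits as the core. A value was taken as moved past 0.1 and a count past 1.5 times. Computation was in Python 3.11.15 (pandas 2.3.3, numpy 2.4.6), loess (span 0.4) came from statsmodels 0.14.6 and plots from matplotlib 3.10.9.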

Additional observations from a re-analysis of the deposited data

How the results depend on the processing

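The number of genes of the set past 2-fold was 2, CDC20 and FBXO5, and this count stayed within 1.5 times in 8 of 10 alternatives. The floors could not change this count, because all 9 genes lay at or above the median on their brighter array. With the probe set of the largest difference it was 4 (3 higher and 1 lower), and at 1.5-fold it was 5 (3 higher and 2 lower), with 18% of all genes higher and 13.5% lower at that fold. After median centring CDC27 also passed, at -1.03. The excess of the activators and E2 over the core subunits was above 0 in all 10 alternatives, between 0.77 and 1.42. Median centring and the floors could not move it from 1.28, because centring shifts every gene alike and no gene fell below a floor. The excess was 1.16 without _x_at and _s_at probe sets where another existed, 1.42 as a mean over each group and 0.77 with all subunits as the core. The median of all measured subunits, 0.065, was -0.058 after median centring, -0.059 after loess centring and -0.079 after quantile normalization, so that its direction is not settled. Median centring subtracted the difference between the 2 array medians over genes. It moved the median difference of all genes by -0.12, from -0.04 to -0.16 and so further from 0. The other scalings moved this median by less than 0.1. Each of the 9 genes kept its sign in the 4 alternatives run for it, the mean of probe sets and the 3 scalings. FZR1 ran between 0.17 and 0.20 and CDC23 between 0.04 and 0.71. The rule without _x_at and _s_at probe sets was not among these 4. Under that rule the sign of FZR1 turns, because its brightest probe set outside those classes differed by -0.20. No paired analysis was possible because each line has 1 array, which also means that no replicate could be left out. Precision is limited by the count of arrays, and signal over background was not analysed here.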

Other observations

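Enzymes that remove ubiquitin chains built by the APC/C were measured too. USP44, which has been described as keeping CDC20 in checkpoint complexes, was at 6.37 in PC3CR and at 4.88 in PC3, a difference of 1.49 by a single probe set. USP37, which protects cyclin A, was at 7.08 in PC3CR and at 6.35 in PC3, a difference of 0.73, and its 3 probe sets ran between 0.73 and 0.85. OTUD7B (Cezanne), which cuts the chain type that UBE2S makes, was at 7.10 in PC3CR and at 7.09 in PC3, a difference of 0.01, although its 6 probe sets ran between -0.05 and 0.87. The sign of OTUD7B turned after median centring, loess centring and quantile normalization.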
